A study of Mus musculus with 30 samples.

Results

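Phase II enzymes attach a polar group to a drug, a hormone or a metabolite so that it can leave the hepatocyte in bile or blood. Glutathione transferases (Gst) couple glutathione to reactive molecules, UDP-glucuronosyltransferases (Ugt) of the endoplasmic reticulum transfer a sugar, mostly glucuronic acid, and cytosolic sulphotransferases (Sult) transfer sulphate. The male mouse liver is rich in pi-class glutathione transferases and in several Ugt2b enzymes, and part of the system is under the control of the receptors CAR, PXR and AHR and of the stress regulator NRF2.

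The genes described here were every Gst (alpha, kappa, mu, omega, pi, theta and zeta classes), Ugt (1 to 3) and Sult symbol that a probe set of the array carried alone. They numbered 49 of 22180 genes with a symbol of their own, 18 Gst, 10 Ugt and 21 Sult. Each had 1 such probe set, and 49 of 49 matched a RefSeq gene. No Ugt1 or zeta-class gene had a probe set of its own, so the Ugt members were 8 Ugt2 and 2 Ugt3 genes. Ugt1a genes and Gstz1 lay on probe sets of several symbols and were not counted. In obese livers the brighter Ugt1a probe set averaged 1105, and that of Gstz1 and Pomt2 averaged 1575. Livers came from wild type male C57BL6/J mice aged 35 weeks, with 6 livers in each of 5 groups. Formerly obese mice had received a diet high in fat and sucrose (HFD) for 20 weeks and then a low-fat control diet for 7 weeks, and formerly obese-HFD mice were given HFD again for 48 h after the same history. Obese mice had received HFD for 27 weeks. Lean-HFD mice had 27 weeks of control diet and then 48 h of HFD, and lean mice had 27 weeks of control diet alone. The design asks what obesity changes in the liver, what remains after weight loss, and how livers with and without that history meet a brief return of HFD.

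Signals are RMA values, given here in linear units. A member was called when limma gave P under 0.01, the ratio of the group averages passed 1.2 and at least 1 of the groups averaged above 8, and calls at a false discovery rate (FDR) of 10%, adjusted over the 41345 probe sets of the array, are given beside it. An average above 8 in at least 1 group was reached by 32 of the 49 members (16 of 18 Gst, 10 of 10 Ugt and 6 of 21 Sult). The 17 dim members were Gsto2, Gstt4 and 15 sulphotransferases, among them Sult1e1 and every Sult2a except Sult2a8. Dim members with P under 0.05 in some comparisons, among them Sult2a4 and Sult2a7, are part of the counts at that threshold given below.

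All 10 hepatocyte markers averaged above 8 in every group, and their summed signal ran between 24876 and 29479 over the 30 livers. Correlations between arrays lay between 0.962 and 0.983. The liver labelled formerly obese-HFD replicate 6 stood apart in the markers of other cells. Its summed cholangiocyte markers reached 227, against 53.5 to 99.6 in the other 29 livers, its stellate cell markers 2536 against 1096 to 2225, and its pericentral hepatocyte markers 7037 against 8248 to 11970. It had the lowest signal of all livers for 10 of the 32 members (Gsta3, Gstk1, Gstt1, Gstt3, Sult2a8, Sult5a1, Ugt2a3, Ugt2b1, Ugt3a1 and Ugt3a2) and the highest for 1, Gstm3. Several values below are also given without it. In formerly obese-HFD vs formerly obese livers, leaving it out moved Ugt2b38 most, from a log2 difference of 0.70 to 1.28. Sult2a8 came next, from -0.16 to 0.35, and neither gene was called with or without it. In whole liver, fewer cells of a type and less RNA per cell cannot be told apart.

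In obese vs lean mice, 5 of 49 members (10.2%) were called, against 2.01% of all probe sets. Gstk1 and Sult1b1 were higher in obese livers, and the pi-class genes Gstp1 and Gstp2 and the glucuronosyltransferase Ugt2b35 were lower. None of them passed the FDR of 10%, as 0.0895% of all probe sets did (smallest adjusted P = 0.117 for Gstk1, limma), while 10 members had an unadjusted P under 0.05, against 7.79% of all probe sets. The median log2 difference was 0.034 over the 49 members and -0.0067 over all probe sets.

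Gstk1 encodes the kappa-class enzyme of mitochondria and peroxisomes. Its signal ran between 784 and 1011 in obese livers (median 956), against 577 to 775 in lean livers (median 665). The 6 obese livers all lay above the 6 lean livers, which was true of no other member and of 0.655% of all probe sets in either direction. The log2 difference was 0.48 ± 0.09 (SE, n = 6 each, limma P = 0.000155), and the exact permutation P was 0.00216, the smallest that 6 against 6 livers allow.

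Gstp1 and Gstp2 are neighbouring genes of the pi class, the main glutathione transferases of male mouse liver, and Gstp3 lies beside them. Gstp1 had signals of 2923 to 5192 in obese livers (median 3899) and of 4602 to 7476 in lean livers (median 5612), a log2 difference of -0.52 ± 0.16 (SE, n = 6 each, limma P = 0.0061, exact permutation P = 0.0173). Gstp2 gave 421 to 540 in obese livers (median 485) and 524 to 918 in lean livers (median 749.9), a difference of -0.56 ± 0.13 (limma P = 0.000965, exact permutation P = 0.00649). The highest obese livers reached into the lean range for both genes, and 6 of 6 obese livers lay below the lean mean for each. The call of Gstp1 ended with 7 of 12 livers left out in turn, and that of Gstp2 with 0 of 12.

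These genes are close copies, so part of the signal of 1 may come from the other. A probe set that carried both symbols moved alike, with 1434 to 1908 in obese livers and 1934 to 2753 in lean livers (log2 difference -0.44 ± 0.10, limma P = 0.000937, exact permutation P = 0.00216). Those groups did not overlap. Gstp3 had 349 to 524 in obese livers (median 422) and 357 to 657 in lean livers (median 439), and its difference of -0.12 did not pass the test.

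The promoters of the 3 pi-class genes are shown because Gstp1 and Gstp2 were both called in obese vs lean livers, whereas Gstp3 was called in lean-HFD vs lean livers alone. Each runs 250 bases before to 50 bases after the start of the gene on the minus strand, from RefSeq (GRCm38.p6), with Gstp1 at chr19:4037863-4038162, Gstp2 at chr19:4042172-4042471 and Gstp3 at chr19:4059398-4059697. Capitals mark the matches to the motifs searched.
Gstp1: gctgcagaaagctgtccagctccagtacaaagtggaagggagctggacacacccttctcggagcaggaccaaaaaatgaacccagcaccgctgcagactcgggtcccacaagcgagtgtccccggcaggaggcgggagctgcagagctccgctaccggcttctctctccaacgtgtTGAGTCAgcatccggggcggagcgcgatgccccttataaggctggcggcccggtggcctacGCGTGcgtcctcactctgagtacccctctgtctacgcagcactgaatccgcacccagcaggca
Gstp2: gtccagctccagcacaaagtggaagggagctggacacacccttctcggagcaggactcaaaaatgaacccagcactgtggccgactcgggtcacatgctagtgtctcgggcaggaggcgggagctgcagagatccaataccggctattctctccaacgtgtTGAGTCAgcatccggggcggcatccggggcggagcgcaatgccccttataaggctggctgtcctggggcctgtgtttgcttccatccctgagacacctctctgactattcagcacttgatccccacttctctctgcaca
Gstp3: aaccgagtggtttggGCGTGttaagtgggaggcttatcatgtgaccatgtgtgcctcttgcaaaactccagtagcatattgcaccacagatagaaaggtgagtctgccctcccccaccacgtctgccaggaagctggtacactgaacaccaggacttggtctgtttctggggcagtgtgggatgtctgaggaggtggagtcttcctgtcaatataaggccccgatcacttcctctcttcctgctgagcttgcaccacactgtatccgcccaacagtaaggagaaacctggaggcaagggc

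In a global alignment, 77.3% of columns were identical between the Gstp1 and Gstp2 promoters, against 50.3% between Gstp1 and Gstp3 and 50.9% between Gstp2 and Gstp3. The letters TGAGTCA, of the AP-1 type, began 74 bases before the start of Gstp1 and 89 bases before that of Gstp2, and had no match in Gstp3. This motif was chosen after the sequences were seen. On either strand it occurred in 5.2% of 32851 RefSeq promoters of the same length and in 6 of the 52 promoters available for 42 members. The AHR core GCGTG matched Gstp1 and Gstp3, as it did 32.4% of all promoters and 8 of the 52.

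Matches to the antioxidant response element TGACNNNGC (2 of 52 member promoters, 12.4% of all promoters), to the STAT5 type TTCNNNGAA (2 of 52, 8.3% of all), to TGAACT of the CAR and PXR type (10 of 52, 14% of all) and to TGTTCT of the glucocorticoid receptor (10 of 52, 19.0% of all) were absent from the 3 windows shown. Both strands were searched, TGAGTCA overlapped no other match there, and a match is a run of letters, not a binding site. In Gstp1 and Gstp2 the letters gc follow TGAGTCA. The resulting TGAGTCAGC differs from TGACNNNGC only by G in place of the first C, and a form with G there was not searched. The absence of the antioxidant response element thus holds for the letters TGACNNNGC alone.

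Sult1b1 sulphates phenols and thyroid hormones. Its signal was 53.7 to 117 in obese livers (median 75.2) and 41.1 to 60.3 in lean livers (median 54.1), with 6 of 6 obese livers above the lean mean. The log2 difference was 0.55 ± 0.17 (SE, n = 6 each, limma P = 0.00608, exact permutation P = 0.0108). Ugt2b35 gave 63.1 to 102 in obese livers (median 80.6) and 88.3 to 116 in lean livers (median 103), a difference of -0.36 ± 0.12 (limma P = 0.00832, exact permutation P = 0.0108), and the groups overlapped. The call of Ugt2b35 ended with 8 of 12 livers left out in turn, and that of Sult1b1 with 5 of 12.

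The alpha-class genes Gsta1 and Gsta2 were measured only by probe sets shared with each other and with predicted genes. The brightest of these had 232 to 785 in obese livers (median 505) and 122 to 503 in lean livers (median 205), and its difference of 1.08 ± 0.36 did not pass the test (limma P = 0.0101, exact permutation P = 0.0303). Gsta3 and Ugt2b1 were not called. Gsta3, which detoxifies aflatoxin epoxide, had a median of 2109 in obese livers and 2030 in lean livers, and the medians of Ugt2b1 were 1440 in obese and 1354 in lean livers.

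**Figure D1:**
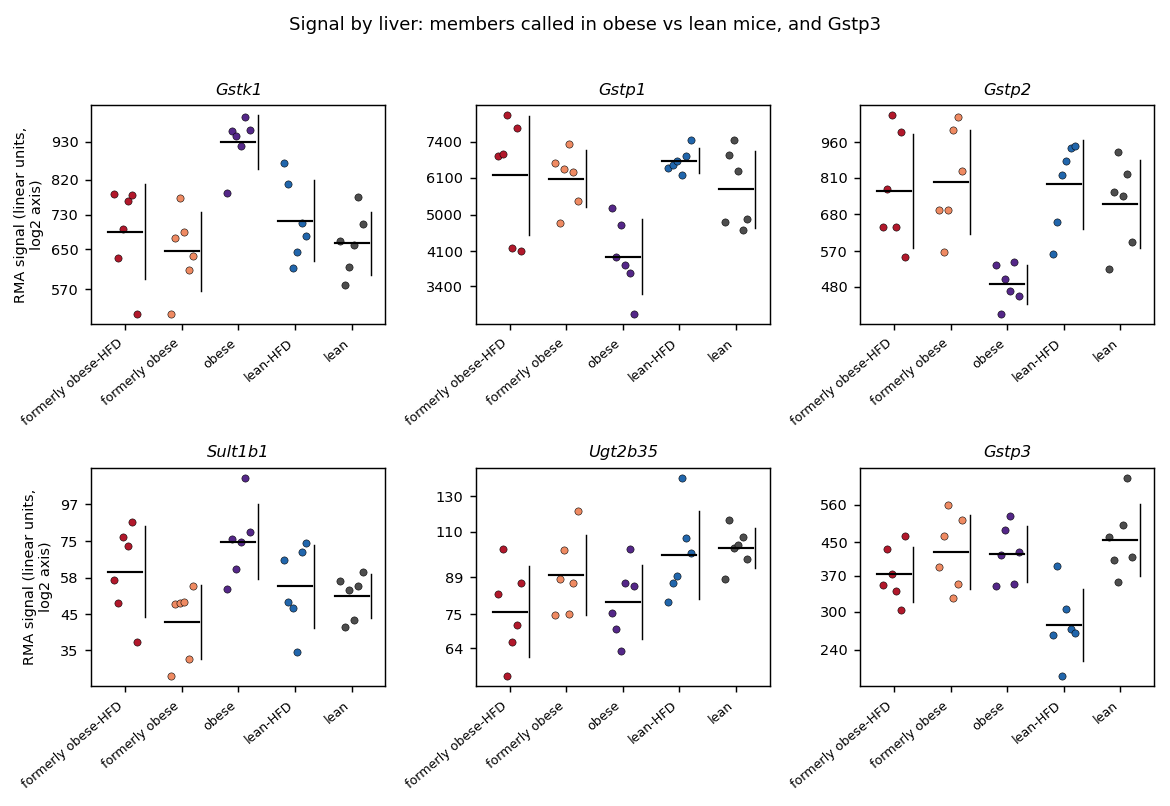
Signal of 6 members in each liver (y axis, RMA signal in linear units on a log2 axis) for the 5 groups of 6 livers. Horizontal lines are means and vertical lines ± 1 SD, both on the log2 scale. Gstk1 lay between 784 and 1011 in obese livers, above every lean liver, while Gstp2 stayed between 421 and 540 in obese livers, and Gstp3 was lowest in lean-HFD livers.

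After weight loss, these members lay at levels that were not called against lean mice. In formerly obese vs lean livers, 0 of 49 members were called (0.905% of all probe sets were), and 1 had P under 0.05, the dim Sult2a7 (limma, adjusted P = 0.803), against 5.87% of all probe sets. No probe set passed the FDR (0%), and 0 members were without overlap, as 0.334% of all probe sets were. Gstk1 had 525 to 771 in formerly obese livers (median 656), against 577 to 775 in lean livers (median 665), a log2 difference of -0.04 ± 0.10. Gstp1 had 4784 to 7317 in formerly obese livers (median 6341), against 4602 to 7476 in lean livers, and Gstp2 had 568 to 1085 (median 765), against 524 to 918 in lean livers, differences of 0.08 ± 0.14 and 0.15 ± 0.18. The largest difference among the 32 members above 8 was -0.53 ± 0.26 for Ugt3a1 (limma P = 0.0611, exact permutation P = 0.0952), whose human counterpart uses UDP-N-acetylglucosamine.

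In formerly obese vs obese mice, 4 of 49 members (8.16%) were called, against 2.17% of all probe sets. Gstp1 and Gstp2 were higher in formerly obese livers, and Gstk1 and Sult1b1 were lower. This comparison shares the obese livers with that of obese vs lean mice, so their values are not independent.

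Gstk1 differed by -0.52 ± 0.10 on the log2 scale (SE, n = 6 each, limma P = 0.000141, exact permutation P = 0.00216). No other member passed the FDR of 10% in any of the comparisons (Gstk1, adjusted P = 0.0875), and here 0.189% of all probe sets passed. In all, 10 members had P under 0.05, against 8.52% of all probe sets. Every formerly obese liver lay below every obese liver, as also for Gstm6, and every one lay above for Gstp2. These 3 members compare with 0.83% of all probe sets without overlap. Gstp2 differed by 0.71 ± 0.15 (limma P = 0.000326, exact permutation P = 0.00216) and Gstp1 by 0.61 ± 0.14 (limma P = 0.000875, exact permutation P = 0.00433), with 6 of 6 formerly obese livers above the obese mean for both.

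Sult1b1 gave 29.2 to 54.8 in formerly obese livers (median 48.5), against 53.7 to 117 in obese livers (median 75.2). The difference was -0.81 ± 0.20 (limma P = 0.0012, exact permutation P = 0.00433), and the groups overlapped in a narrow range. Ugt3a1 was 40.6 to 116 in formerly obese livers (median 68.9) and 66.2 to 162 in obese livers (median 126), a difference of -0.75 ± 0.27 that did not reach the threshold (limma P = 0.0144, exact permutation P = 0.0368).

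Sums of cell markers also differed. Summed adipocyte markers were 4249 to 5546 in obese livers, against 3599 to 4543 in lean livers, with 1 of the 6, Cidec, called. Adipoq and Lep averaged 8 or less in both groups, and Retn did in obese livers. Car3 made up most of the sum in obese livers, with an average of 4659 against a median sum of 5072. The sum is thus not read as a measure of adipocytes. Stellate cell markers were 1459 to 2225 in obese and 1254 to 1744 in lean livers. In formerly obese livers the 12 Kupffer cell and macrophage markers summed to 1208 to 2398, against 975 to 1663 in obese and 924 to 1406 in lean livers. Of the 12, 5 were called higher than in lean mice (limma, adjusted P = 0.737 to 0.789), where 0.905% of all probe sets were called. The adipocyte sum was 3217 to 4413 in formerly obese livers (median 3901), with Cidec and Car3 called lower than in obese livers. Car3 averaged 3804 in formerly obese livers and so made up most of that sum as well. The 8 pericentral hepatocyte markers summed to 8248 to 10029 in formerly obese livers, against 9999.6 to 11970 in obese livers, with 1 of the 8, Oat, called lower. Of these marker calls, only that of Cidec in formerly obese vs obese livers passed the FDR of 10% (limma, adjusted P = 0.0597). The part of these markers in the results was not tested.

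**Figure D2:**
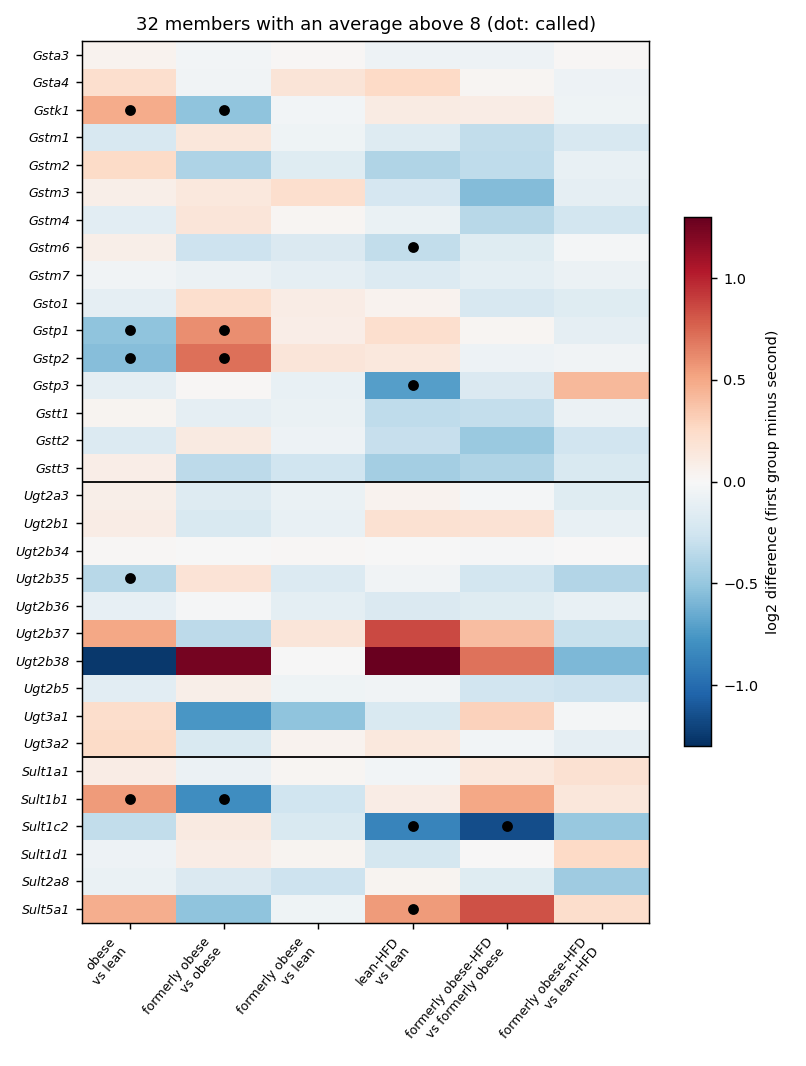
Log2 differences (colour, first group minus second, scale from -1.3 to 1.3) of the 32 members with an average above 8 in 6 comparisons, grouped as Gst, Ugt and Sult from top to bottom. Dots mark called members, which number 5 in obese vs lean, 4 in formerly obese vs obese, 4 in lean-HFD vs lean and 1 in formerly obese-HFD vs formerly obese livers, and 0 in the columns for formerly obese vs lean and formerly obese-HFD vs lean-HFD.

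The response to 48 h of HFD was asked first in mice without a history of obesity. In lean-HFD vs lean mice, 4 of 49 members (8.16%) were called, against 1.29% of all probe sets. Gstp3, the mu-class Gstm6 and Sult1c2 were lower in lean-HFD livers and Sult5a1 was higher. None passed the FDR of 10% (smallest adjusted P = 0.385, limma), as 0.00726% of all probe sets did, and 9 members had P under 0.05, against 6.43% of all probe sets. No member was without overlap (0.44% of all probe sets were). The lean livers are the same as in the comparison with obese mice.

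Gstp3 had 206 to 391 in lean-HFD livers (median 268), against 357 to 657 in lean livers (median 439). Only the highest lean-HFD liver, replicate 2, reached into the lean range. The log2 difference was -0.72 ± 0.16 (SE, n = 6 each, limma P = 0.000742, exact permutation P = 0.00433). Its neighbours Gstp1 (6178 to 7491 in lean-HFD livers, 4602 to 7476 in lean livers) and Gstp2 (561 to 946 in lean-HFD livers, 524 to 918 in lean livers) had differences of 0.22 and 0.14 and were not called.

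Gstm6 gave 95.8 to 122 in lean-HFD livers (median 110.5) and 120 to 156 in lean livers (median 135), a difference of -0.32 ± 0.09 (limma P = 0.00349, exact permutation P = 0.00433). Sult1c2 gave 27.9 to 89.7 in lean-HFD livers (median 46.4) and 58.4 to 145 in lean livers (median 93.8), a difference of -0.86 ± 0.28 (limma P = 0.00885, exact permutation P = 0.0216). Sult5a1, a sulphotransferase of little known substrate range, gave 31.5 to 60.8 in lean-HFD livers (median 54.8) and 27.4 to 42.9 in lean livers (median 33.4), a difference of 0.55 ± 0.17 (limma P = 0.00727, exact permutation P = 0.0195). Gstm6 overlapped by a single pair of livers and the sulphotransferases more widely, and 5 of 6 lean-HFD livers lay above the lean mean for Sult5a1. The calls of Sult1c2 and Sult5a1 ended with the replicate number as a block, and with 8 and 7 of 12 livers left out in turn.

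Most other members of the mu and theta classes had negative log2 differences that did not pass the test. All 6 Gstm members were under 0 in lean-HFD vs lean livers (-0.40 to -0.09, median -0.20), and 3 of 4 Gstt members were (median -0.31), while the median of all probe sets was -0.0045. The 3 Gstt members above 8 had a median of -0.33, and the sign of the dim Gstt4 is not read. Gstt1, a theta-class enzyme that acts on small halogenated compounds, had 495 to 718 in lean-HFD livers (median 579) and 636 to 895 in lean livers (median 739.7), a difference of -0.33 ± 0.11 (limma P = 0.0104, exact permutation P = 0.0173). Gstt3 differed by -0.45 ± 0.16 (limma P = 0.0166, exact permutation P = 0.0346) and Gstm2 by -0.40 ± 0.17 (limma P = 0.0327, exact permutation P = 0.0563).

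Beside these, 3 of 6 periportal hepatocyte markers (Cdh1, Pck1 and Cyp2f2) were called higher in lean-HFD livers, with sums of 7069 to 8480 against 5579 to 7125 in lean livers. Their adjusted P was 0.136 to 0.556 (limma), where 1.29% of all probe sets were called. Of the 8 pericentral hepatocyte markers, 1, Cyp1a2, was called higher as well (limma, adjusted P = 0.159). The pericentral sums were 9546 to 11552 in lean-HFD livers and 9200 to 10601 in lean livers. The sinusoidal endothelium markers summed to 595 to 960 in lean-HFD livers and 787 to 1145 in lean livers. Their part in the calls of Gstp3 and Gstm6 was not tested.

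In formerly obese-HFD vs formerly obese mice, 1 of 49 members (2.04%) was called, against 1.18% of all probe sets. None passed the FDR (0.0242% of all probe sets did), 7 had P under 0.05 (5.97% of all probe sets) and 0 were without overlap (0.414%). Sult1c2 had 18.1 to 85.3 in formerly obese-HFD livers (median 36.6), against 52.5 to 107 in formerly obese livers (median 82.9). The difference of -1.16 ± 0.32 (SE, n = 6 each, limma P = 0.00294, exact permutation P = 0.013) had 5 of 6 formerly obese-HFD livers below the formerly obese mean, with replicate 1 above it. Without each liver in turn, Sult1c2 was called every time.

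Sult5a1 gave 22.6 to 116 in formerly obese-HFD livers (median 66.7) and 23.6 to 49.8 in formerly obese livers (median 31.1), a difference of 0.83 ± 0.35 (limma P = 0.0347, exact permutation P = 0.0736). Sult1b1 gave 37.2 to 85.7 in formerly obese-HFD livers (median 64.7), a difference of 0.51 ± 0.22 from formerly obese livers (limma P = 0.0359, exact permutation P = 0.0498). In both, replicate 6 was the lowest refed liver, and without it 3 members were called, Sult5a1 (1.09), Sult1b1 (0.65) and Sult1c2. The 6 Gstm members again had differences under 0 (-0.56 to -0.13, median -0.32), as did the 4 Gstt members (median -0.35), and none of the 10 was called. Gstt4 is dim, so its sign is not read, and the 3 Gstt members above 8 had a median of -0.39. The probe set shared by Gstm5 and 4933431E20Rik, not counted as a member, differed by 0.06 ± 0.16 here and by -0.14 ± 0.12 in lean-HFD vs lean livers. Without replicate 6 the medians of the 6 Gstm and the 4 Gstt members were -0.34 and -0.26. The lowest Gstm value, that of Gstm3, was then -0.99 in place of -0.56. Gstt2 (-0.48 ± 0.19, limma P = 0.0216, exact permutation P = 0.0433), Gstt1 (-0.31 ± 0.12, limma P = 0.024, exact permutation P = 0.0303) and Gstm4 (-0.36 ± 0.16, limma P = 0.0416, exact permutation P = 0.0649) had P under 0.05 by limma. Without replicate 6, Gstt1 (-0.24) and Gstm4 (-0.37) no longer did, and Gstt2 (-0.49) did. Gstm2, at -0.33 with that liver, was at -0.45 without it and then also had P under 0.05 by limma.

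Between the refed groups no member was called. In formerly obese-HFD vs lean-HFD livers 0 of 49 members were called (0.914% of all probe sets were), none passed the FDR (0%), and 4 had P under 0.05 by limma, against 5.48% of all probe sets (smallest adjusted P = 0.884). No member was without overlap (0.271% of all probe sets were). Gstp3 had 304 to 468 in formerly obese-HFD livers (median 362), against 206 to 391 in lean-HFD livers (median 268), a difference of 0.43 ± 0.15 (limma P = 0.0132, exact permutation P = 0.026), with 6 of 6 formerly obese-HFD livers above the lean-HFD mean. Replicate 6 had the highest Gstp3 of its group, and without it the difference was 0.36. Ugt2b35 (-0.38 ± 0.16, limma P = 0.0362, exact permutation P = 0.0563), Ugt2b5 (-0.27 ± 0.12, limma P = 0.0391, exact permutation P = 0.0346) and the dim Sult2a4 were the others. Without replicate 6, Ugt2b5 (-0.26) no longer had P under 0.05, and the dim Sult2b1 (0.23) did. The test of the difference between both responses to HFD called 0 of 49 members (0.716% of all probe sets) and none by the FDR (0%), with 1, Gstp3, at P under 0.05 (5.2% of all probe sets). Its value was 0.53 ± 0.23 (limma, adjusted P = 0.944), and 0.46 without replicate 6, where the unadjusted P was no longer under 0.05. Ugt3a1, at 0.50 with that liver, was at 0.74 without it and then had an unadjusted P under 0.05 (limma, adjusted P = 0.859). For Sult1c2, whose signal was lower after HFD with and without the history, that test gave -0.30 ± 0.45 (limma, adjusted P = 0.974).

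**Figure D3:**
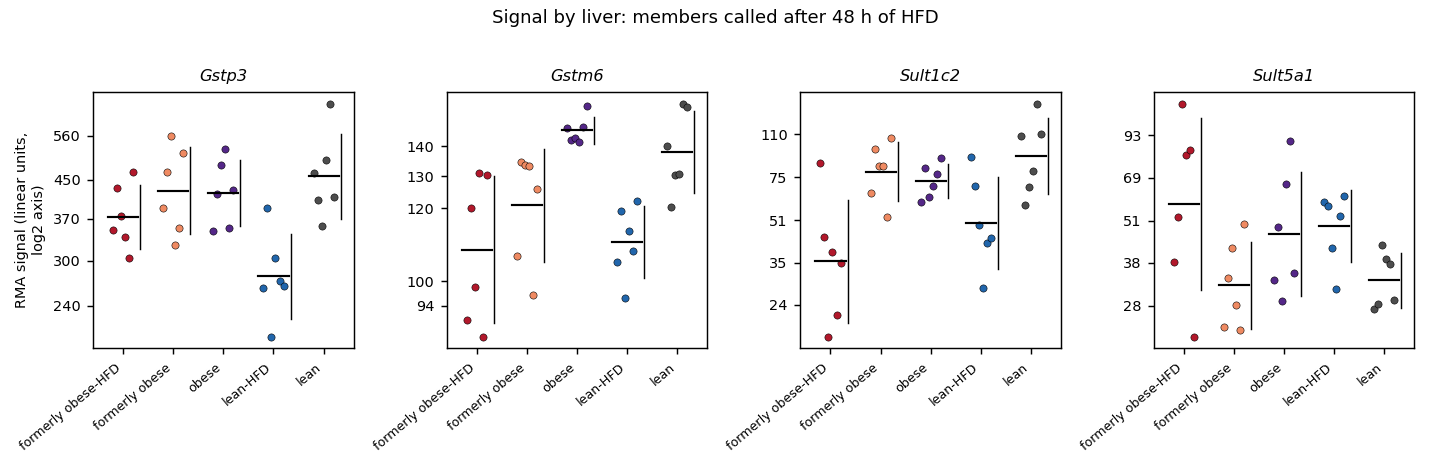
Signal of the 4 members called after 48 h of HFD in each liver (y axis, RMA signal in linear units on a log2 axis), with means and ± 1 SD on the log2 scale for 6 livers per group. Gstp3 was between 206 and 391 in lean-HFD livers and between 304 and 468 in formerly obese-HFD livers, while Sult1c2 was low in most livers of both refed groups.

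The spread within groups differed between members. The median SD within groups was 0.29 on the log2 scale for the 32 members and 0.25 for the 27035 probe sets with an average above 8. The widest were Ugt2b38 (SD 1.42), Gstm3 (1.05) and Sult2a8 (0.67), and the narrowest was Gsta3 (0.093). Ugt2b38 and Gstm3 lay outside the rule for named genes and were taken up after their values were seen.

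Ugt2b38 ran between 7.70 and 406 across livers. It gave 7.70 to 59.5 in obese livers (median 20.4) and 21.9 to 117 in lean livers (median 49.1), a log2 difference of -1.25 ± 0.49 (limma P = 0.0241, exact permutation P = 0.0584). In lean-HFD livers it gave 33.2 to 347 (median 143), a difference of 1.28 ± 0.59 from lean livers (limma P = 0.0475, exact permutation P = 0.0887). Neither was called, and the groups overlapped in both. Ugt2b37, a gene of the same cluster on chromosome 5, passed the minimum average of 8 only through refed livers (4.93 to 18.2 in lean-HFD livers), while every lean liver lay below it (3.54 to 7.75), so its difference is not read.

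Gstm3, a mu-class gene, had 37.3 to 605 in formerly obese-HFD livers, 109 to 580.4 in formerly obese livers, 92.7 to 365 in obese livers, 70.1 to 548 in lean-HFD livers and 79.2 to 405 in lean livers. The 5 groups overlapped widely. Sult2a8, a bile acid sulphotransferase of mouse liver, ran between 643 and 1302 in obese livers, 602 and 1222 in lean-HFD livers and 742 and 1092 in lean livers. It was lower than in any of these in formerly obese replicate 1 (335) and formerly obese-HFD replicate 6 (121). Those livers had the highest Gstm3 of their groups. The probe set shared by Gsta1 and Gsta2 gave 1404 in formerly obese-HFD replicate 6, against a group median of 127.

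**Figure D4:**
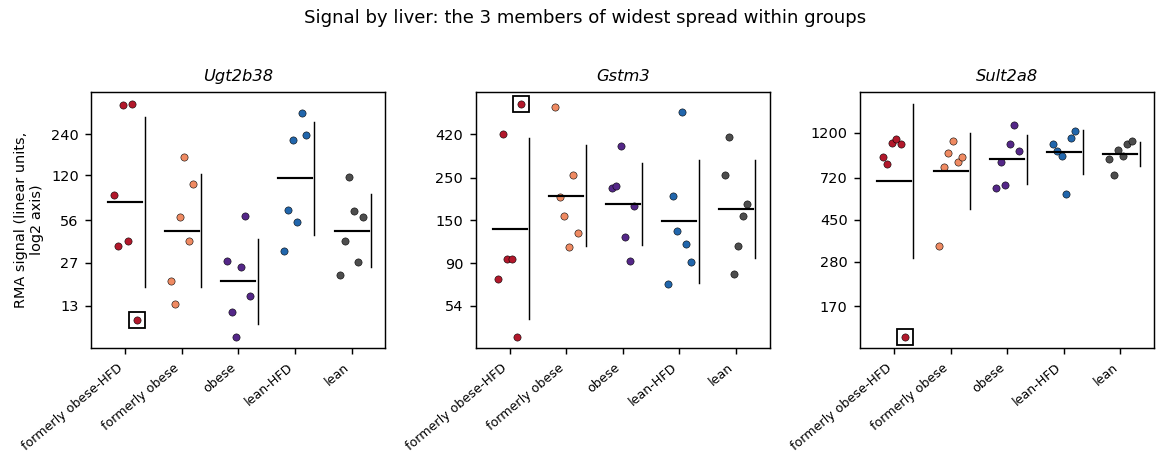
Signal of Ugt2b38, Gstm3 and Sult2a8 in each liver (y axis, RMA signal in linear units on a log2 axis) for the 5 groups of 6 livers, with means and ± 1 SD on the log2 scale. The square marks formerly obese-HFD replicate 6, at 605 for Gstm3 and 121 for Sult2a8, and Ugt2b38 spans 7.70 to 406.

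Deviations of single livers from their group mean were compared for the 496 pairs of the 32 members, as a description across 30 livers that share arrays, diet groups and tissue. The coefficient r was above 0.7 in 23 pairs and under -0.7 in 8, with a median of 0.17 within a family and 0.021 between families. Without formerly obese-HFD replicate 6, 11 of the 23 and 5 of the 8 stayed past these limits, and in all 12 pairs were above 0.7 and 9 under -0.7.

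Gstm3 ran against a set of glucuronosyltransferases and sulphotransferases. It gave r = -0.84 (rho = -0.79) with Ugt2a3, -0.83 (rho = -0.82) with Ugt2b1 and -0.80 (rho = -0.73) with Sult1b1, and -0.80, -0.79 and -0.75 without that liver. Leaving out the 2 livers farthest in Gstm3 gave -0.79, -0.76 and -0.71. Sult1b1 and Ugt2a3 went together (r = 0.81, rho = 0.76), as did Ugt2b36 and Ugt2b5 (r = 0.81, rho = 0.79) and the glutathione transferases Gstm1 and Gstt2 (r = 0.79, rho = 0.81), and without replicate 6 these gave 0.77, 0.81 and 0.79. Sult2a8 and Ugt3a2 (r = 0.78) gave 0.42 without that liver. Close copies among the Ugt2b and Gstm genes may share signal on the array.

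**Figure D5:**
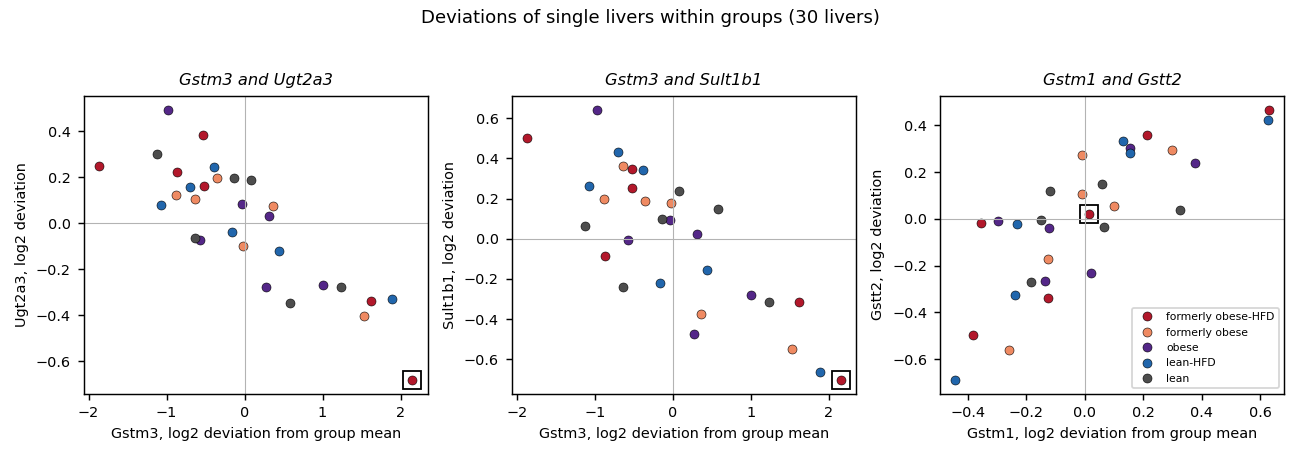
Deviation of each liver from its group mean (both axes, log2 units) for 3 pairs of members in 30 livers, coloured by group, with formerly obese-HFD replicate 6 in a square. Gstm3 falls as Ugt2a3 (r = -0.84) and Sult1b1 (r = -0.80) rise, and Gstm1 and Gstt2 (r = 0.79) rise together.

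Over the 30 livers and 16085 probe sets of single symbol and average above 8, the patterns most like Gstk1 were those of Hsd17b10 (r = 0.88), Cd1d1 (0.85) and Cmbl (0.85). Sult1b1 was closest to Gpcpd1 (0.89), Kmo (0.87) and Rarres1 (0.86), and Ugt2b35 to Pigq (0.67), Nfyb (0.66) and Khsrp (0.66).

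Genes that supply these reactions were taken from lists and called by the same criteria. Of those named below, Ces1g in obese vs lean (adjusted P = 0.0927, limma), Suox in formerly obese vs obese (0.0726) and Me1 in formerly obese-HFD vs formerly obese livers (0.0675) passed the FDR of 10%, and no other call did. Of the 20 measured genes of glutathione synthesis and recycling, 0 were called in obese vs lean livers and 1 was lower in formerly obese vs obese livers, Ggct, which cleaves gamma-glutamyl dipeptides (58.6 ± 12.2 in formerly obese and 81.8 ± 14.7 in obese livers, SD). Ugp2, which makes UDP-glucose for glucuronidation, was lower after HFD, at 1087 ± 94.6 in lean-HFD and 1401 ± 221 in lean livers and at 978 ± 98.3 in formerly obese-HFD and 1379 ± 200.5 in formerly obese livers (limma, adjusted P = 0.608 and 0.443). It was the 1 of 8 genes of UDP-glucuronate supply and removal to be called in any comparison. The 3 microsomal glutathione transferases gave no call.

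Among 11 measured genes of sulphate supply and removal, Suox, which oxidises sulphite to sulphate, was higher in obese livers (394 ± 36.9, against 285 ± 22.0 in lean livers, limma, adjusted P = 0.114) and lower in formerly obese livers (283 ± 23.1, adjusted P = 0.0726 against obese). Slc35b2 was lower in formerly obese vs lean livers, Bpnt1 higher in lean-HFD vs lean livers and Arsa lower in formerly obese-HFD vs formerly obese livers. Of 15 other conjugating enzymes, Tpmt and Nnmt, methyltransferases of thiopurines and nicotinamide, were higher in obese vs lean livers, and Acsm1 was higher in lean-HFD vs lean livers.

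Of 9 efflux pumps that export conjugates, 3 were higher in obese vs lean livers, namely Abcc3 (516 ± 137 in obese and 336 ± 91.7 in lean livers, SD), Abcg2 and Abcb1a (adjusted P = 0.353 to 0.418, limma, where 2.01% of all probe sets were called), and 2, Abcc3 and Abcg2, were lower in formerly obese vs obese livers. Of 17 transcription regulators, the 1 called was Nr1i3 (CAR), with 1092 ± 140 in obese and 814 ± 111 in lean livers (limma, adjusted P = 0.299), and 697 ± 201 in formerly obese livers (adjusted P = 0.168 against obese).

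Among 19 NRF2 targets outside the families, Ces1g and Aox1 were higher in obese vs lean livers and lower in formerly obese vs obese livers, Hmox1 was higher in formerly obese vs lean livers, and Me1, which is also a lipogenic enzyme, was higher in formerly obese vs obese livers and lower in lean-HFD vs lean and in formerly obese-HFD vs formerly obese livers, with Pgd lower in lean-HFD vs lean livers. Of 14 genes dependent on AHR, CAR or PXR, 2 were called, Cyp1a2 and Cyp3a13, both higher in lean-HFD vs lean livers. Of 17 genes of known sex bias in mouse liver, Cyp7b1 was higher in lean-HFD vs lean livers and Acot3 lower in formerly obese-HFD vs formerly obese livers.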

How the data were processed

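The authors deposited log2 signals of Affymetrix Mouse Gene 2.0 ST arrays, normalised together by RMA in Affymetrix Expression Console 1.4.1.46 per the submitters' processing notes. No source used here gives a genome build for the array annotation. The table held 41345 probe sets in 30 livers (1 array each, values 1.24 to 13.7). Probe sets were named from GEO's platform annotation (23521 with 1 symbol, 1820 with several and 16004 with none), and those with several symbols named no member. Linear values are 2 to the power of the deposited log2 signal.

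Each comparison was fitted on its own 12 livers (24 for the interaction) with limma 3.58.1 in R 4.3.3, after the study's criteria, and P was adjusted by Benjamini-Hochberg over all probe sets. For single genes, an exact permutation test (two-sided) ran over the 924 ways to divide 12 livers. The scripts were tested on simulated data. Replicates are separate livers by label, and whether mice shared a cage is not given. The number of arrays limits the precision. Named genes were those called in any comparison, with the 3 brightest and the 3 of smallest P per family. Members, gene lists and tests were chosen with earlier results of these data known. Promoters were aligned globally (match 1, mismatch -1, gap -2). Alternatives were another spread, prior, filter, fold change, array weights, median centring, the replicate number as a block, and each liver left out.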

Additional observations from a re-analysis of the deposited data

Results flagged for a closer look

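Over 90 sets of 6 livers (18 named genes in 5 groups), 2 held a liver far below the others, where chance flags about 1 set in 20. Sult2a8 in formerly obese replicate 1 was 335, with the next liver at 817, and the gap took 0.752 of the group's range on the log2 scale. In formerly obese-HFD replicate 6 it was 121, with the next liver at 845, a gap of 0.874 of the range.

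The response of Gstp3 to HFD differed between mice with and without a history of obesity by 0.53 on the log2 scale, with an unadjusted P under 0.05 that did not hold after adjustment over all probe sets (limma, adjusted P = 0.944). It was 1 of 49 members (2.04%) with such a P, against 5.2% of all probe sets, and without formerly obese-HFD replicate 6 the value was 0.46 and P was no longer under 0.05.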

How the results depend on the processing

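In obese vs lean livers, 5 members were called. With all 30 livers in 1 fit this was 3 (Gstk1, Gstp1 and Gstp2), at a fold change above 1.5 it was 0, and at the FDR of 10% 0. Leaving out each liver gave 2 to 5, with 2 without lean replicate 2, lean replicate 4 or obese replicate 2, and 3 without lean replicate 3, obese replicate 4 or obese replicate 6. In formerly obese vs obese livers, 4 were called, 1 at the FDR and 4 to 5 with a liver left out. In lean-HFD vs lean livers, 4 were called, 2 at the higher fold change, 0 at the FDR and 2 to 7 with a liver left out (2 without lean replicate 1, lean-HFD replicate 5 or lean-HFD replicate 6, and 7 without lean-HFD replicate 2). In formerly obese-HFD vs formerly obese livers, 1 was called, 2 in the fit of all livers, 0 at the FDR and 1 to 4 with a liver left out (4 without formerly obese-HFD replicate 1 or replicate 2, 3 without replicate 6, and 2 without formerly obese replicate 4). Formerly obese-HFD vs lean-HFD livers and the difference between both responses gave 0 to 1 with a liver left out, and formerly obese vs lean livers gave 0 throughout.

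Calls kept with every liver left out were Gstk1 and Gstp2 in obese vs lean, Gstk1, Gstp1, Gstp2 and Sult1b1 in formerly obese vs obese, Gstm6 and Gstp3 in lean-HFD vs lean, and Sult1c2 in formerly obese-HFD vs formerly obese livers. Calls lost with some livers left out were Gstp1 (7 of 12), Sult1b1 (5 of 12) and Ugt2b35 (8 of 12) in obese vs lean and Sult1c2 (8 of 12) and Sult5a1 (7 of 12) in lean-HFD vs lean livers. Other settings that ended a call were the fit of all livers (Sult1b1 and Ugt2b35 in obese vs lean, Sult5a1 in lean-HFD vs lean), array weights (Ugt2b35 in obese vs lean, Sult1c2 in lean-HFD vs lean) and an average above 16 (Sult1c2 in lean-HFD vs lean). Over 24 results of single members, 0 of 466 alternative values reversed. The r of Sult2a8 and Ugt3a2 moved to 0.42 without formerly obese-HFD replicate 6, an alternative chosen after seeing the data. The causes were not tested.

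Same-numbered livers did not deviate together (mean r 0.021, -0.11 to 0.13), and 5 of 30 livers correlated best with their own number. With the replicate number as a block, 4 members were called in obese vs lean (without Ugt2b35), 6 in formerly obese vs obese (with Gstm2 and Ugt3a1 added), 3 in lean-HFD vs lean (without Sult1c2 and Sult5a1 and with Ugt2b37) and 1 in formerly obese-HFD vs formerly obese livers, and 0 in the other comparisons.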
